A study of Homo sapiens with 6 samples.

Results

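The genes described here encode proteins that bind AU-rich elements (AREs) and related hairpins in the 3′ ends of messenger RNAs: ZFP36, ZFP36L1, ZFP36L2, ZC3H12A, RC3H1, RC3H2, ELAVL1, KHSRP, HNRNPD and TIA1. They were chosen by symbol, 10 of the 45372 genes in the deposited tables, and compared between endothelial cells given a miR-409-3p mimic and endothelial cells given a control RNA. The group was proposed after ZFP36 had been seen to be higher in mimic cells, so the ZFP36 difference is given as a description with no test. The p-values of the other 9 come from the same comparison and are not independent evidence about the group.

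RNA-seq was collected from wild-type human umbilical vein endothelial cells (HUVECs), primary cells of the vein lining, 48 h after transfection by a lipid reagent. In 3 libraries the cells had received a miR-409-3p mimic, a double-stranded RNA that supplies the microRNA, and in the other 3 a non-specific control RNA, each at 50 nM. Every library title also calls its cells not treated, without saying which treatment is meant, and both groups went through the transfection. The series title places miR-409-3p and BTG2 in 1 signalling axis of vessel growth and wound repair in obesity. The labels call the libraries of a group biological replicates but do not say that they came from separate cultures or donors, so p-values measure only the spread between these libraries.

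AREs are stretches rich in A and U, often with overlapping AUUUA motifs, that make many cytokine, growth factor and immediate early messages short-lived. ZFP36 (tristetraprolin) and its paralogs ZFP36L1 and ZFP36L2 bind them through paired CCCH zinc fingers and recruit the CCR4-NOT deadenylase, and p38-MK2 signalling with 14-3-3 binding restrains ZFP36. ZC3H12A (Regnase-1, an endoribonuclease) and RC3H1 and RC3H2 (Roquin-1 and Roquin-2) act on stem-loops in inflammatory messages, ELAVL1 (HuR) usually stabilises ARE messages, KHSRP and HNRNPD (AUF1) commonly promote their decay, and TIA1 represses their translation. In endothelium ZFP36 family proteins are known to limit inflammatory and angiogenic transcripts.

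The sequences that matter here are the microRNA and the sites in the members' own 3′ UTRs. Mature miR-409-3p lies on chromosome 14 at chr14:101065346-101065367 on the plus strand (RefSeq, GRCh38.p14), and its seed, bases 2 to 8, is in capitals. Below it stand the first TTATTTATT of the 3′ UTR of each ZFP36 family gene and of RC3H2, the motif that ZFP36 proteins bind best, and then the seed matches of RC3H2, RC3H1, ELAVL1 and TIA1, with the motif or match in capitals and 8 flanking bases on each side. Transcript sequences are from GENCODE 29, written 5′ to 3′ on the transcript strand with T for U.
miR-409-3p: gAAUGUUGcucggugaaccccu
ZFP36 ARE: tgacgactTTATTTATTctaatatg
ZFP36L1 ARE: ctgttggaTTATTTATTttagaaat
ZFP36L2 ARE: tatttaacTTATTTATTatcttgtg
RC3H2 ARE: tagttaacTTATTTATTtctatttt
RC3H2 seed match 1: aatttggaCAACATTtaacttaa
RC3H2 seed match 2: atttcagtCAACATTtgaaaaga
RC3H1 seed match: gtaaaaggCAACATTAttggcctc
ELAVL1 seed match: aaccgcttCAACATTgtaagcga
TIA1 seed match: gtcaacttCAACATTtacatgta

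In GRCh38 the ARE windows lie at chr19:39409198-39409222 (plus strand) for ZFP36, chr14:68788079-68788103 (minus) for ZFP36L1, chr2:43223450-43223474 (minus) for ZFP36L2 and chr9:122849201-122849225 (minus) for RC3H2. The seed windows lie at chr9:122849370-122849392 and chr9:122848346-122848368 for RC3H2, chr1:173936548-173936571 for RC3H1, chr19:7963027-7963049 for ELAVL1 and chr2:70211844-70211866 for TIA1, all on the minus strand. The RC3H1 window holds an 8mer match (CAACATTA) and the others hold a 7mer match (CAACATT).

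All 10 members passed the filter of at least 1 TPM (transcript level corrected for gene length and library total) in at least 3 of 6 libraries. The groups were compared with limma on log2(TPM + 1) over 13680 genes with Benjamini-Hochberg adjustment at 0.05, and a fold change is mimic minus control on that scale, where low genes appear to change less than they do. Of the 9 members other than ZFP36, 1 fell (ZFP36L1), 0 rose and 8 did not pass, and no call is given for ZFP36. Over all genes tested 0.431% passed, with 0.132% higher and 0.300% lower (18 and 41 genes, or 34 and 42 with quantile scaling). Because the group was built around this comparison, nothing is read from that count. Groups did not overlap for 3 members (ZFP36, ZFP36L1 and RC3H2), against 15.7% of all genes tested. Nothing is read from this count either, since ZFP36 had been seen to be higher beforehand. The median log2 fold change of the members was -0.04 and that of all genes tested -0.017.

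**Figure D1:**
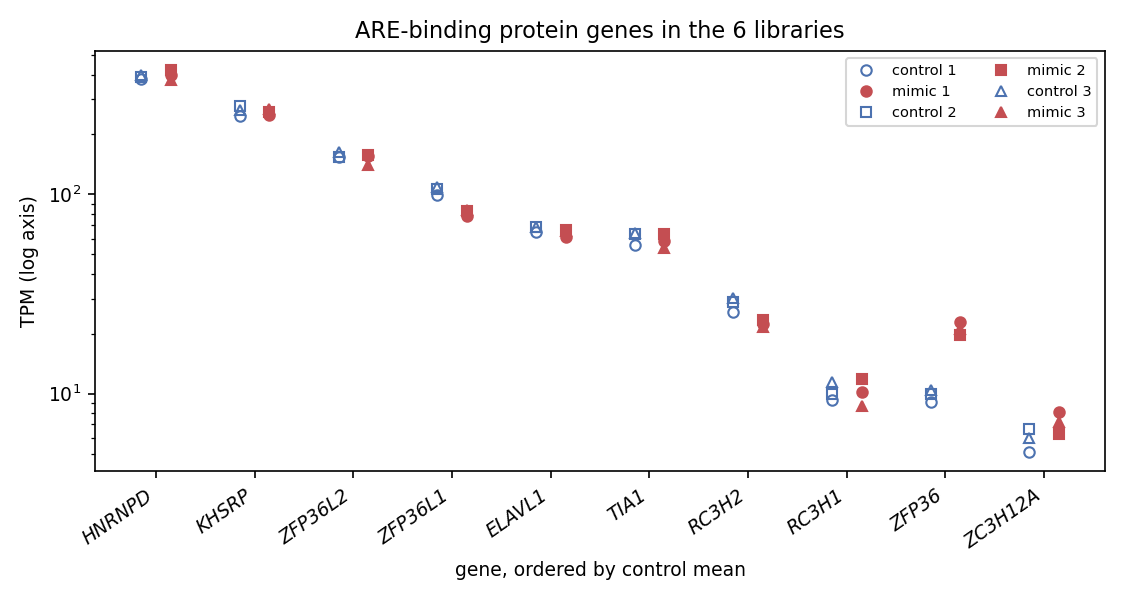
TPM of the 10 genes on a log axis, ordered by control mean; open blue symbols are control libraries and filled red symbols mimic libraries, with 1 symbol shape per replicate number. ZFP36 stands at 19.8 to 23.0 TPM in mimic and 9.06 to 10.5 TPM in control libraries, and ZFP36L1 and RC3H2 are the other genes whose groups do not overlap.

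ZFP36 (ENSG00000128016, chromosome 19, 39406813 to 39409412, plus strand) encodes the founding member of the family, an immediate early decay factor. It measured 9.06, 9.95 and 10.5 TPM in control libraries 1 to 3 and 23.0, 19.8 and 21.1 TPM in mimic libraries 1 to 3. Every mimic library was above every control library, and the gap between the groups was wider than the spread within either. The means were 9.82 ± 0.704 and 21.3 ± 1.62 TPM (SD, n = 3 each), 2.17 times the control level, with a log2 fold change of 1.04 (SE 0.08). The depth estimated from the tables put 151 to 182 reads per control library and 321 to 376 per mimic library behind these values. With each library left out in turn the log2 fold change ran from 0.99 to 1.09. These refits reuse the libraries in which the difference was first seen, so they add no support. As these are bulk samples, a change in the number of cells that express a gene and a change per cell cannot be told apart.

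ZFP36L1 (ENSG00000185650, chromosome 14, 68787660 to 68796253, minus strand), the paralog known for roles in vascular development and in restraining cell cycle and VEGFA messages, went the other way. It measured 99.4, 107 and 109 TPM in control and 78.0, 83.0 and 83.6 TPM in mimic libraries. All mimic libraries lay below all control libraries. The means were 105 ± 4.81 and 81.5 ± 3.10 TPM (n = 3), 22.2% lower in mimic cells, with a log2 fold change of -0.36 (SE 0.06, 95% interval -0.49 to -0.23). ZFP36L1 fell by limma with Benjamini-Hochberg adjustment (adjusted p = 0.0440). That call was lost whichever single library was left out, control 1, 2 or 3 or mimic 1, 2 or 3, with adjusted p from 0.0569 to 0.199 and log2 fold changes from -0.40 to -0.33.

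ZFP36L2 (ENSG00000152518, chromosome 2, 43222402 to 43226609, minus strand), the third paralog and the most abundant here, measured 154, 154 and 164 TPM in control and 156, 158 and 141 TPM in mimic libraries. The groups overlapped, with mimic library 3 the lowest of the 6. Its log2 fold change was -0.05 (SE 0.06, 95% interval -0.19 to 0.08, limma adjusted p = 0.879), so the data leave room for a fall of 0.19 or a rise of 0.08 on that scale.

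Since TPM is per length, the 3 paralogs can be added up. Their summed level was 263, 270 and 283 TPM in control and 257, 261 and 246 TPM in mimic libraries, so mimic library 2 lay just below control library 1 and the groups did not overlap. ZFP36 made up 3.45% to 3.69% of the family sum in control and 7.57% to 8.96% in mimic libraries. ZFP36L1 made up 37.8% to 39.4% and 30.4% to 34.0%, and ZFP36L2 56.9% to 58.7% and 57.3% to 60.7%. The TPM of ZFP36L1 was 10.4 to 11.0 times that of ZFP36 in control and 3.39 to 4.20 times in mimic libraries. These shares and ratios were not tested. The gene lengths behind the TPM are not given, so sums, shares and ratios across genes are approximate. ZFP36 remained the least abundant of the 3 in all 6 libraries.

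**Figure D2:**
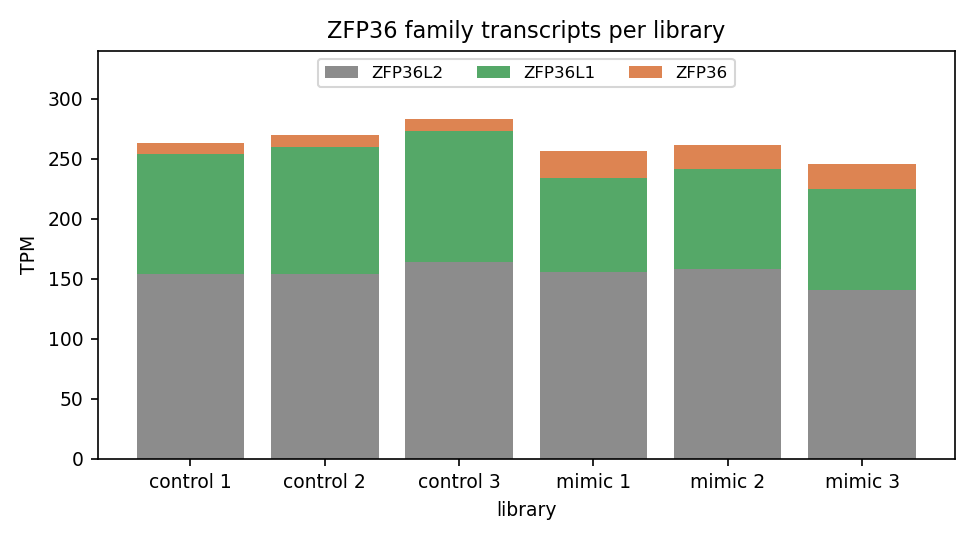
Stacked TPM of ZFP36L2, ZFP36L1 and ZFP36 in each library. The ZFP36 segment is 9.06 to 10.5 TPM in control and 19.8 to 23.0 TPM in mimic libraries, on family sums of 263 to 283 and 246 to 261 TPM.

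ZC3H12A (ENSG00000163874, chromosome 1, 37474552 to 37484379, plus strand), encoding Regnase-1, was the lowest member. It measured 5.07, 6.67 and 6.01 TPM in control and 8.07, 6.30 and 7.24 TPM in mimic libraries. The groups overlapped, because mimic library 2 was below control library 2. Its log2 fold change was 0.25 (SE 0.12, 95% interval -0.03 to 0.52, limma adjusted p = 0.522), on an estimated 131 to 205 reads per library.

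Of the Roquin genes, RC3H2 (ENSG00000056586, chromosome 9, 122844556 to 122905341, minus strand) measured 25.8, 29.0 and 30.2 TPM in control and 22.4, 23.5 and 21.5 TPM in mimic libraries, with no overlap. Its log2 fold change was -0.32 (SE 0.07, 95% interval -0.49 to -0.15), about as far below 0 as that of ZFP36L1, but it did not pass (limma adjusted p = 0.126) in this fit or in any of 16 other settings, where the adjusted p was 0.0786 to 0.416. RC3H1 (ENSG00000135870, chromosome 1, 173931214 to 174022297, minus strand) measured 9.24, 9.99 and 11.4 TPM in control and 10.1, 11.9 and 8.71 TPM in mimic libraries. Its lowest and highest values were both in mimic libraries. The log2 fold change was -0.00011 (SE 0.12, 95% interval -0.27 to 0.27). The difference between the Roquin genes was not tested.

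The other ARE-binding members, which are abundant in these cells, overlapped between the groups. ELAVL1 (HuR) measured 64.6, 68.4 and 68.6 TPM in control and 61.2, 66.6 and 65.6 TPM in mimic libraries, with a log2 fold change of -0.06 (95% interval -0.19 to 0.07). KHSRP, a KH-domain decay factor, measured 248, 278 and 265 TPM and 251, 259 and 268 TPM, with -0.02 (-0.15 to 0.11). HNRNPD (AUF1), the most abundant member, measured 379, 389 and 397 TPM and 396, 422 and 373 TPM, with 0.03 (-0.10 to 0.16). For these 3 genes the intervals leave room for a fall of 0.19 or a rise of 0.16 on the log2 scale. TIA1, a stress granule protein gene, measured 55.9, 63.1 and 64.4 TPM and 58.1, 63.5 and 54.1 TPM, with -0.06 (-0.24 to 0.12). The limma adjusted p of ELAVL1, KHSRP, HNRNPD and TIA1 ranged from 0.845 to 0.966. Counted over whole gene spans, introns included, TIA1 shares 39172 bases on its own strand with the annotated gene C2orf42. ELAVL1 and HNRNPD overlap antisense genes, and KHSRP and HNRNPD have processed pseudogene copies. RC3H1 shares 6940 bases of span on its own strand with RC3H1-IT1, annotated as intronic, and also holds RNA5SP68. RC3H2 (SNORD90), ZC3H12A (MIR6732) and KHSRP (MIR3940) hold a small RNA gene on their own strand. Overlap of exons was not measured. These genes may or may not share reads with other loci, and their levels are less certain to that extent.

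**Figure D3:**
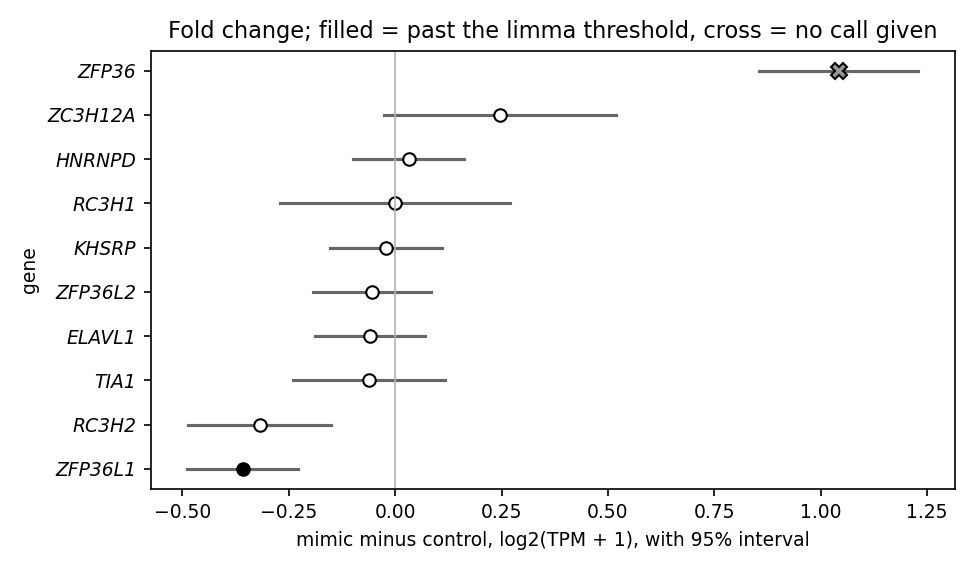
Mimic minus control difference in log2(TPM + 1) for each gene, with its 95% interval from limma, unadjusted for the number of genes; filled points passed the adjusted threshold, and ZFP36 is drawn as a cross with no call. ZFP36 at 1.04 lies alone on the right, ZFP36L1 (-0.36) and RC3H2 (-0.32) lie on the left, and the intervals of the other 7 genes include 0. The interval drawn for ZFP36 is no test, because the group was proposed after its difference had been seen.

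In control cells the order of levels was HNRNPD (388 ± 9.03 TPM), KHSRP (263 ± 15.2), ZFP36L2 (157 ± 5.88), ZFP36L1 (105 ± 4.81), ELAVL1 (67.2 ± 2.25), TIA1 (61.1 ± 4.59), RC3H2 (28.3 ± 2.27), RC3H1 (10.2 ± 1.10), ZFP36 (9.82 ± 0.704) and ZC3H12A (5.92 ± 0.802; SD, n = 3). RC3H1 and ZFP36 were the only neighbours in that order whose ranges over the control libraries overlapped. In mimic cells ZFP36 stood above RC3H1 with no overlap and overlapped RC3H2 (22.5 ± 1.01 TPM), and the ranges of ELAVL1 and TIA1 met. The other places in the order were the same. The coefficient of variation over control libraries ran from 2.33% for HNRNPD to 13.5% for ZC3H12A.

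**Figure D4:**
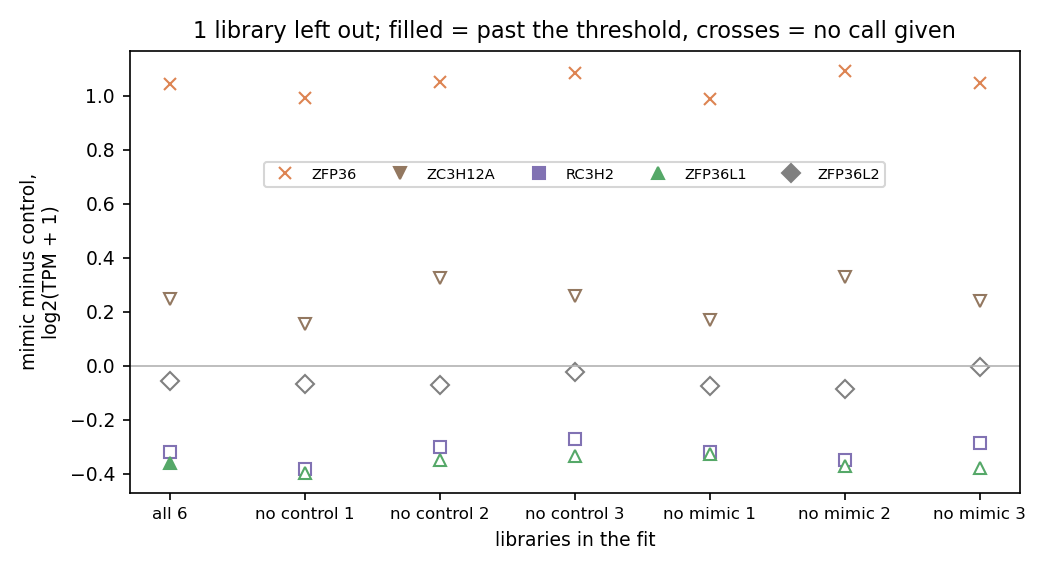
Log2 fold change of the 3 ZFP36 paralogs, RC3H2 and ZC3H12A with all 6 libraries and with each library left out; filled symbols passed the adjusted threshold in that fit, and ZFP36 is drawn as crosses with no call. ZFP36 lies at 0.99 to 1.09 with 1 library left out, and ZFP36L1 lies between -0.40 and -0.33 and is filled with all 6 libraries only.

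The 3′ UTRs of the members held AREs of their own. Motifs were counted in the longest annotated 3′ UTR on the transcript strand, overlapping copies included, and each TTATTTATT contains a TATTTAT, which in turn contains the pentamer ATTTA. The pentamer occurred in 8 of 10 members and 74.1% of 11852 tested coding genes, TATTTAT in 7 members and 35.8% of genes, and TTATTTATT in 5 members and 9.48% of genes. The 5 were ZFP36, ZFP36L1, ZFP36L2, RC3H2 and ELAVL1, so all 3 paralogs carry the motif that the family binds. Each paralog had 1 copy of TTATTTATT and 3 of TATTTAT, in UTRs of 713 nt for ZFP36, 2828 nt for ZFP36L1 and 1917 nt for ZFP36L2. ZC3H12A and KHSRP had no ATTTA. The counts were not corrected for UTR length. A link between the number of copies and the fold changes was not tested.

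Seed matches to miR-409-3p of at least 7 bases were present in 4 members, against 22.8% of tested coding genes, and a microRNA commonly lowers messages that carry such matches. The 3′ UTRs of these 4 were 3275 to 7507 nt long, against a median of 1383 nt over tested coding genes. The part of UTR length in this count was not tested. RC3H2 held 2 copies of CAACATT, at UTR positions 243 and 1267 of 5071, and had a log2 fold change of -0.32. RC3H1 held the 8mer at position 2158 of 7507 and measured -0.00011. ELAVL1 and TIA1 held 1 CAACATT each and both measured -0.06. Another 3 members had only the 6mer AACATT (ZFP36L2, KHSRP and HNRNPD), and 3 had no match (ZFP36, ZFP36L1 and ZC3H12A). Of the listed messages past the threshold described below, DLL4, which fell, and NFKBIZ, which rose, held the 7mer AACATTA. CXCL2 and PIM1, which both rose, held CAACATT. A match is a string of letters and not a shown site of binding.

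Messages reported as ARE targets of the ZFP36 family were mixed. Of 34 listed genes, 29 were tested, of which 2 rose (CXCL2 and PIM1), 1 fell (DLL4) and 26 did not pass, against 0.132% higher and 0.300% lower of all genes tested. Before adjustment, at p under 0.05, 7 were higher and 4 lower, against 3.05% and 7.64% of all genes. The median was 0.02, against -0.017 over all genes tested. CXCL2 and DLL4 were known from earlier results of these data when the list was made. The other 5 listed genes were under the filter. TNF, the classical ZFP36 target, was listed at 0 in all 6 libraries, and CSF2, LIF, IL1B and CCL20 did not exceed 0.919 TPM in any library.

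CXCL2, a neutrophil-attracting chemokine gene, measured 5.70, 7.37 and 8.76 TPM in control and 19.1, 20.6 and 13.3 TPM in mimic libraries, with no overlap (log2 fold change 1.17, SE 0.18, limma adjusted p = 0.0409). PIM1, a survival kinase gene, measured 9.48, 10.1 and 9.79 TPM in control and 14.4, 14.9 and 15.5 TPM in mimic libraries, a rise of 0.56 (SE 0.07, limma adjusted p = 0.0143). Both carry clustered AREs, with 5 and 3 overlapping or separate copies of TTATTTATT, shown here for the first copy of each at chr4:74097592-74097616 (minus strand) and chr6:37174987-37175011 (plus strand) in GRCh38.
CXCL2 ARE: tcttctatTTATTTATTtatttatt
PIM1 ARE: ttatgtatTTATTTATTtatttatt

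DLL4, the Notch ligand of tip cells and a reported ZFP36L1 target, measured 112, 113 and 113 TPM in control and 91.7, 89.6 and 88.3 TPM in mimic libraries, a log2 fold change of -0.32 (SE 0.05, limma adjusted p = 0.0321). DLL4 and ZFP36L1 were both lower in mimic cells, and a link between them was not tested. With 1 library left out, CXCL2 passed only without mimic 3, PIM1 only without mimic 2 or mimic 3, and DLL4 in none of the 6 fits, with adjusted p of 0.00889 to 0.150, 0.0377 to 0.0785 and 0.0549 to 0.165.

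Of the listed ARE messages that did not pass, F3 (tissue factor) differed by 0.71 on the log2 scale (SE 0.15), the chemokine gene CXCL3 by 0.87 (SE 0.19) and the stress kinase gene PLK3 by -0.49 (SE 0.11), with limma adjusted p from 0.0868 to 0.128. F3 measured 2.05, 2.25 and 2.80 TPM in control and 4.68, 5.26 and 3.67 TPM in mimic libraries. PLK3 measured 19.2, 24.5 and 21.6 TPM and 16.5, 12.9 and 16.2 TPM. CXCL3 measured 2.01, 1.05 and 2.24 TPM in control and 3.99, 4.51 and 3.40 TPM in mimic libraries, so its control values lay near the filter of 1 TPM. F3, CXCL3 and PLK3 did not overlap between the groups. F3 and CXCL3 were higher in mimic libraries and PLK3 was lower. The related chemokine gene CXCL1, which has 3 copies of TTATTTATT, measured 73.5, 97.9 and 96.2 TPM in control and 86.2, 90.6 and 85.6 TPM in mimic libraries, and overlapped. CXCL1 was singled out after its values were seen.

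Of 17 reported stem-loop messages of Regnase-1 and the Roquins, 11 were tested, 2 rose (CXCL2, which is on both lists, and NFKBIZ), 0 fell and 9 did not pass, with a median of 0.07, beside the same 0.132% higher and 0.300% lower of all genes. Before adjustment 4 were higher and 2 lower, against 3.05% and 7.64%. CXCL2, CXCL3, PTGS2 and IER3 are among these and were already counted on the ARE list. CXCL1 and IL6 also stand on both lists, so the lists are not separate evidence. NFKBIZ, an atypical IκB gene, rose from 9.91 ± 1.95 to 19.9 ± 1.04 TPM (n = 3; log2 fold change 0.95, SE 0.12, limma adjusted p = 0.0169). It did not pass without control 1, control 2 or mimic 1, and its adjusted p ran from 0.0122 to 0.0829 with 1 library left out. NFKBIZ was also known from earlier results. PTGS2 (cyclooxygenase-2) differed by 0.40 on the log2 scale (SE 0.10) and IER3, an immediate early gene, by -0.18 (SE 0.04), and neither passed (limma adjusted p = 0.143 and 0.148).

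**Figure D5:**
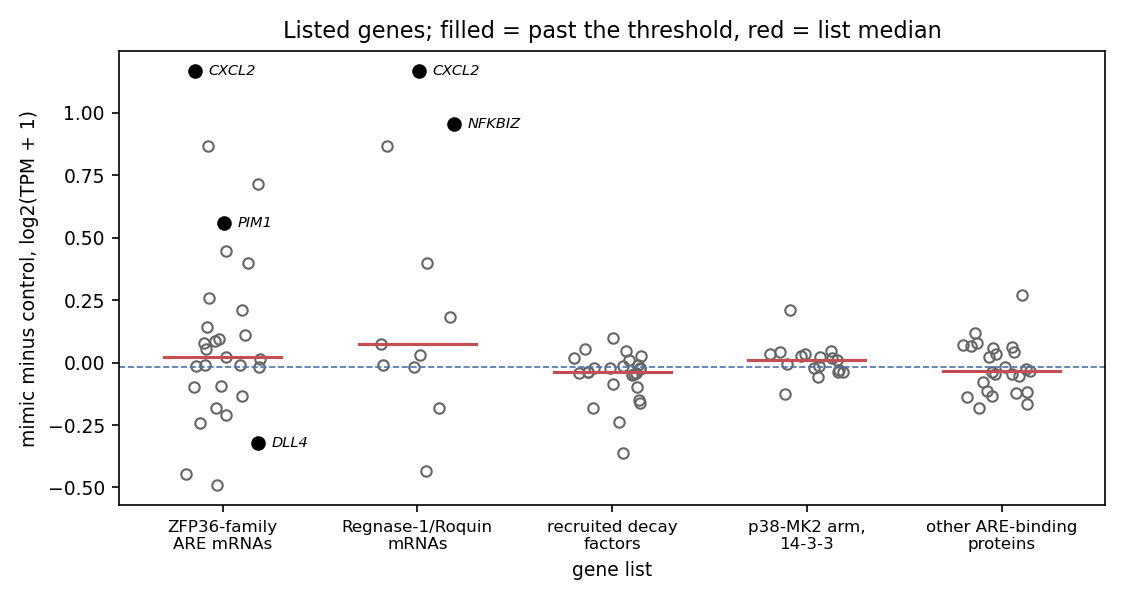
Mimic minus control difference in log2(TPM + 1) of each tested gene by list; filled points passed the threshold, red bars are list medians and the dashed line is the median of all genes tested (-0.017). Genes past the threshold stand in the 2 message lists only, and the ARE messages reach from -0.49 (PLK3) to 1.17 (CXCL2).

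The machinery around the members gave no gene past the threshold by limma. Of 25 decay factors that the members recruit, 0 rose and 0 fell. Before adjustment, at p under 0.05, 0 were higher and 3 lower, against 3.05% and 7.64% of all genes tested. DCP2, the decapping enzyme, came nearest, at 16.1, 16.2 and 16.2 TPM in control and 12.0, 13.1 and 12.0 TPM in mimic libraries, a log2 fold change of -0.36 (SE 0.07, limma adjusted p = 0.0645). Its groups did not overlap, and it passed in fits with a filter of 5 TPM, a robust prior or coding genes only. UPF1, the helicase that works with Regnase-1, measured -0.16 (SE 0.07) and EXOSC4, an exosome subunit gene, -0.24 (SE 0.10).

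Of 17 genes of the p38-MK2 arm and 14-3-3 partners of ZFP36, 0 rose and 0 fell. Before adjustment, at p under 0.05, 1 was higher and 0 lower, against 3.05% and 7.64% of all genes tested. That gene was DUSP1, a p38 phosphatase and itself an ARE message, at 0.21 (SE 0.08, limma adjusted p = 0.380). MAPK14 (p38α) measured -0.13 (SE 0.06), MAP2K3, its upstream kinase, -0.06 (SE 0.06) and MAPKAPK2 (MK2, named beyond the rule) 0.01 (SE 0.06). Of 25 tested further ARE-binding proteins, 0 rose and 0 fell by the adjusted test. Before adjustment 1 was higher and 3 lower, against the same 3.05% and 7.64% of all genes tested. ZC3H12C, a Regnase paralog known from endothelial cells, measured 0.27 (SE 0.08), FXR2, an RNA-binding FMR1 relative, -0.18 (SE 0.06) and IGF2BP1, an mRNA-stabilising protein gene, -0.17 (SE 0.06). Their limma adjusted p was 0.256 to 0.348. Of the neuronal paralogs of ELAVL1, which were under the filter, ELAVL2 was listed at 0.427 to 1.07 TPM, ELAVL3 did not exceed 0.0728 TPM and ELAVL4 was listed at 0 in all 6 libraries.

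Across the transcriptome, fold changes were grouped by ARE copies, as a description since genes are not replicates. Outside the members, 10724 genes with no TTATTTATT had a median log2 fold change of -0.018, 858 with 1 copy -0.019, 174 with 2 copies -0.037 and 86 with 3 or more -0.035. In the last class 2 genes rose, CXCL2 and PIM1, and 0 fell, against 0.132% higher and 0.300% lower of all genes tested. Both were already counted on the ARE list, and CXCL2 was known from earlier results. Nothing further is read from this count. The difference of -0.017 between the last class and genes with no copy ran from -0.045 to 0.0020 when 1 library was left out, and it was above 0 without control 3 or mimic 3. UTR length moved with the classes, with medians of 1261 nt for no copy and 4550 nt for 3 or more, and its part in the result was not tested.

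The genes whose log2(TPM + 1) was most like that of ZFP36 over the 6 libraries, by Pearson r among 10564 genes of at least 5 TPM on average, were MYLIP (0.995), GLYCTK (0.991), STC1 (0.990), GADD45A (0.989) and TRIB1 (0.988). MYLIP, GADD45A and TRIB1 rose, while GLYCTK and STC1 did not pass. These points share the 2 groups and the libraries. The genes were picked for following ZFP36, which had been seen to be higher in mimic cells. Nothing is read from their direction. With each group centred on its mean, the 5 most alike were RBM23 (0.999), TBX1 (0.994), DTX2 (0.987), PINX1 (0.982) and ZNF236 (0.982), and none of the first 5 was among them. Both lists are descriptions over 6 libraries. Each holds the highest r among 10564 genes, so the high values of r follow from the choice.

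The tables give no measured depth; from their low values it was estimated at 29.8 to 35.8 M assigned reads in each of the 6 libraries. The labelled cell type was matched by its markers: all 10 endothelial markers were present, among them PECAM1 at 1022 to 1155 and VWF at 843 to 961 TPM, and their sum was 5788 to 6057 TPM in control and 6064 to 6233 TPM in mimic libraries. Of the endothelial markers 0 passed by limma, and 1 was higher before adjustment, against 3.05% of all genes tested. The leukocyte markers PTPRC and CD3E were listed at 0 in all libraries. The summed level of 6 leukocyte markers was 16.9 to 19.9 TPM in control and 16.9 to 19.1 TPM in mimic libraries, nearly all of it CD68. The sum of 5 smooth muscle markers was 9.60 to 13.3 and 10.4 to 12.0 TPM, that of 6 fibroblast markers 12.9 to 16.1 and 13.0 to 16.4 TPM, and that of 5 epithelial markers 290 to 300 and 249 to 310 TPM, most of it KRT18.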

How the data were processed

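Per the labels' protocols, libraries started from 500 ng of total RNA, enriched for mRNA and cut with an enzyme, took 13 PCR cycles and were read over 75 cycles from 1 end. The design text says 4 technical replicates were pooled per RNA sample. The authors deposited 1 table of TPM per library, per the file headers. Per the submitters' processing notes the build was hg38, with GRCh38.p13 also listed. For the aligner, counter, annotation, strand and filters: not given in the sources used here. Symbols were found for 45102 of 45372 IDs. Positions, gene types and 3′ UTRs (at least 30 nt) came from GENCODE 29 on GRCh38, which held 43348 IDs, and the microRNA from RefSeq. No protein sequences were used here.

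Depth was estimated from low values: TPM times exon length gave whole multiples of a library's step within 0.03 reads for 76.2% to 77.0% of low genes. PCR copies are included, and reads carried no molecular identifiers.

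limma 3.58.1 in R 4.3.3 was fitted with group as the only term and a trended prior on log2(TPM + 1), for genes of at least 1 TPM in at least 3 libraries. Groups came from the sample titles. The members, lists and tests were chosen with earlier results of these data known. Named are the members, listed genes past the threshold, up to 3 further genes per list by unadjusted p, the defining markers, and the 5 genes most like ZFP36; genes beyond this rule are said to be so or complete a count. Simulated data had 200 of 13680 genes changed. There the mimic against control fit found 17.2% of the genes set to 1.25-fold, 63.9% at 1.5-fold and 85.8% at 2-fold. Of its calls 4.78% were false. The simulation gave each gene the spread of a randomly drawn gene, so spread did not depend on level. Its folds were set on log2(TPM + 1). These rates therefore need not hold for the fit reported. Alternatives were pseudocounts, filters, scalings, priors, coding genes only, a replicate block, and leaving out each library. Python 3.11.15, pandas 2.3.3 and matplotlib 3.10.9 were used.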

Additional observations from a re-analysis of the deposited data

How the results depend on the processing

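In the 16 other settings the log2 fold change of ZFP36 was 0.99 to 1.11. This is a description, since its difference had been seen in these libraries before the group was proposed. ZFP36L1 kept its direction in 16 and passed in 7. Members that fell numbered 1 in the fit reported and 0 with no filter on low values, an untrended prior or a replicate block, and 0 (lowest and highest) with 1 library left out. Over all genes, 18 rose and 41 fell. No filter gave 6 rises and 5 falls, a 5 TPM filter 36 and 79, the untrended prior 10 and 10, the robust prior 37 and 82, coding genes only 54 and 122, and the replicate block 9 and 5. Median-of-ratios scaling gave 33 and 54, and the quantile method 34 and 42. With 1 library left out, 6 to 22 rose and 6 to 27 fell. Of the ARE messages 2 rose and 1 fell. The rises were 0 with no filter, 1 with an untrended and 1 with a robust prior, 4 with coding genes only, 0 with the replicate block, and 0 to 2 with 1 library left out. The falls were 0 with no filter, an untrended prior, the replicate block or 1 library left out. Of the stem-loop messages 2 rose, against 0 with no filter, an untrended prior or the replicate block, 1 with a robust prior and 0 to 2 with 1 library left out. Of the decay factors 0 fell, against 1 (DCP2) with a filter of 5 TPM, a robust prior or coding genes only. The cause of these shifts was not tested. The ARE class difference of -0.017 ran from -0.045 to 0.0020 with 1 library left out. Same-numbered control and mimic libraries correlated at 0.03, -0.09 and -0.11 in their deviations from group means, and control 2 correlated best with mimic 3 (0.11). With 3 libraries per group these values cannot decide whether same-numbered libraries were handled together. Under the block the adjusted p of ZFP36L1 was 0.122 (limma). The scalings moved the median of all genes by 0.02 on the log2 scale at most. Low members (ZC3H12A and ZFP36) rest on fewer estimated reads than the rest.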
